A study of Homo sapiens with 6 samples.

Results

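The prostaglandin enzyme genes described here are PTGS1, PTGS2, PTGES, PTGES2, PTGES3, HPGD, PTGR1, AKR1C1, AKR1C2 and AKR1C3, which makes 10 genes of the 18665 with a named probe on the array. They were listed by symbol, and every probe carrying one of the symbols was taken, 18 probes in all. Of the genes 5 have 1 probe, 4 have 2 probes and AKR1C2 has 5. Where a gene has several probes, the main value is that of the probe chosen by its mean intensity over all 6 arrays, so brightness itself is a description here and is not tested. The genes were also proposed with earlier results of these arrays known.

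The study hybridised total RNA of 2 esophageal squamous carcinoma lines to Illumina Human-6 V3 bead arrays, with 1 array for each line and time point. TE13R is a radioresistant clone, labelled non-sensitive to radiation, that was derived from TE13 by continuous fractionated irradiation. TE13 is its parental line, labelled sensitive to radiation, and the cell line field of the labels reads TE13 for both. Both were grown in the same serum-supplemented RPMI medium, were irradiated with a 6 MV X-ray linear accelerator and were sampled at 0, 8 and 24 h, where 0 h is taken from the study as the state before irradiation. The dose is not stated in the labels or methods read here, and TE13R stands for a single resistant clone. The arrays include no unirradiated culture at 8 or 24 h. A change described below as after irradiation therefore cannot be told apart from a change with time in culture or handling. A microarray measures the brightness with which labelled RNA binds each probe, and the deposited values are linear intensities from which the background was already subtracted.

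The arrays held intensities on 1 scale, with medians of 7.95 to 7.96, and 37.3% of the probes of each array lay above a detection limit of about 20.2, set at 3 times the root mean square among negative values. Squamous keratinocyte markers (7 of 7 on the array, KRT5, KRT14 and DSG3 among them) and simple epithelial markers (5 of 5) were above this limit on all 6 arrays. No fibroblast marker (of 6) and no leukocyte marker (of 4) was above it on all 6 arrays, and COL1A2, COL3A1, DCN, PTPRC and CD3E were below it on every array. The endothelial markers PECAM1 and VWF were above it on all 6 arrays while CDH5 was below it. The 0 h arrays of the lines resembled each other (Pearson r 0.973 over all probes passing the filter on low values) more than either resembled the later arrays of its own line (r 0.884 to 0.931). Fewer cells of a type and less RNA per cell cannot be told apart in such bulk RNA.

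Prostaglandins are lipid mediators made from arachidonic acid, which phospholipases release from membranes. The cyclooxygenases PTGS1 (COX-1, expressed in many tissues at rest) and PTGS2 (COX-2, induced by inflammatory and mitogenic signals) turn it into the common precursor prostaglandin H. Terminal synthases pass that on to prostaglandin E, prostaglandin D and the other prostanoids. HPGD oxidises prostaglandins and so begins their breakdown, PTGR1 reduces the oxidised products further, and AKR1C3 is a ketoreductase that acts on prostaglandins D and H as well as on steroids. Squamous epithelium, that of the esophagus included, is a known site of PTGS2 induction in inflammation and cancer.

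Of the 10 genes 8 were above the detection limit on all 6 arrays and entered the fit across genes, and HPGD and AKR1C1 did not pass the filter on low values. Only PTGS2 was called between the lines, with 1 gene higher, none lower and 7 not called in TE13R. Over all 12783 genes tested, 2.61% were called higher and 2.45% lower in TE13R (limma, adjusted p under 0.05, with 2310 genes at an unadjusted p under 0.05). After irradiation, PTGES2 was higher and PTGR1 lower at both 8 and 24 h in both lines, AKR1C3 was lower at 8 h, and PTGES was higher at 24 h. As each line and time point has 1 array, p-values do not measure the spread between cultures. They rest on what line and time point leave unexplained over the 6 single arrays, with a prior drawn from all genes. A line difference that changes with time is part of that remainder.

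**Figure D1:**
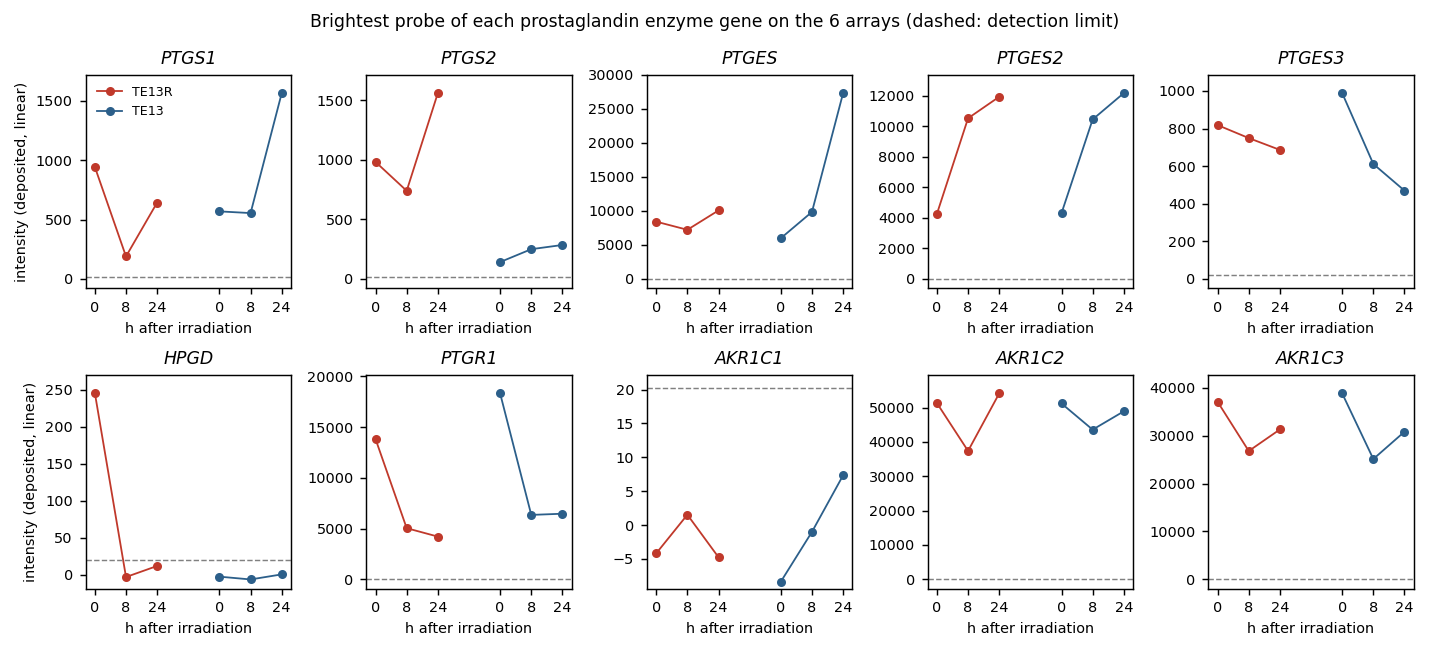
Deposited linear intensity of the brightest probe of each of the 10 genes at 0, 8 and 24 h (evenly spaced) in TE13R (red, left) and TE13 (blue, right), 1 array a point, with the detection limit dashed and an axis of its own for each gene. The 3 PTGS2 points of TE13R, 739 to 1558, all lie above those of TE13, 142 to 285, and HPGD is above the limit on the TE13R 0 h array alone.

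Among the cyclooxygenases, PTGS2 was called higher in TE13R. Its brightest probe read 981, 739 and 1558 in TE13R at 0, 8 and 24 h, against 142, 249.5 and 285 in TE13. The lowest TE13R array was thus well above the highest TE13 array. The ratio of TE13R over TE13 was 6.93 at 0 h, 2.96 after 8 h and 5.47 after 24 h. The mean intensity was 1093 ± 421 in TE13R and 225 ± 74.6 in TE13 (SD, n = 3 time points each). On the log2 scale the difference was 2.19 (standard error 0.25, limma adjusted p = 0.00475), a 4.55-fold difference with a 95% interval of 3.04 to 6.81, and it ranked 139 by size among the 12783 genes. The call held when any 1 time point was left out, with differences of 1.95 to 2.52. It was lost when no dim probes were filtered out (limma adjusted p = 0.257, where 0 of 18665 genes were called by limma and 2270 had an unadjusted p under 0.05), when time point was left out of the model (limma adjusted p = 0.411) and by the methods' t-test (0.703 after Benjamini-Hochberg adjustment).

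The other probe of PTGS2 was close to background. It read 67.3, 15.0 and 137 in TE13R at 0, 8 and 24 h, against 9.68, 0.104 and 25.6 in TE13. On 2 TE13R arrays and 1 TE13 array it was above the detection limit, and the lines overlapped. Its difference pointed the same way, 1.51 on the log2 scale (standard error 0.32, limma adjusted p = 0.034 over all 16954 probes kept). A difference of this size near background depends on the offset of 16. The brightest probe had a log2 change of 0.18 at 8 h (standard error 0.31, limma adjusted p = 0.66), and both 8 h arrays of the dim probe were below the limit. At 24 h the brightest probe had a change of 0.80 against 0 h (standard error 0.31, limma adjusted p = 0.058), 0.66 in TE13R alone and 0.93 in TE13 alone.

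The 250 bases before the RefSeq start of PTGS2 are shown because this is the member that differed between the lines. They lie at chr1:186680424-186680673 on the minus strand of GRCh38.p14, and capitals mark the matches to the motifs searched.
PTGS2: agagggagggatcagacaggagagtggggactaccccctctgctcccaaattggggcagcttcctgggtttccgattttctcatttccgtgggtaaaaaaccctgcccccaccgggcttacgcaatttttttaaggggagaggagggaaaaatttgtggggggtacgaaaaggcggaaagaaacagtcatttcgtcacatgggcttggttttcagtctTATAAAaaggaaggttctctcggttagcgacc
The motifs were searched on both strands as exact letters, where N is any base, R is A or G and Y is C or T. They were the antioxidant response element core TGACNNNGC, the AP-1 site TGANTCA and the cAMP response element TGACGTCA. The others were the TATA element TATAAA, the GC box GGGCGG and the NF-kB consensus GGGRNNYYCC. In PTGS2 the TATA element was the only exact match, beginning at position -32 from the start, and 10.7% of the 35116 windows of this length in the table hold it. A site that departs from the letters in any base is missed by such a search. In this and the other windows, a motif not found does not mean that its site is absent. These letters describe the window alone, since the arrays measure no binding.

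PTGS1, the constitutive cyclooxygenase, had an uneven course. Its brightest probe read 942, 189 and 643 in TE13R at 0, 8 and 24 h, against 568, 554 and 1563 in TE13. Its other probe, assigned to another transcript accession, read 304, 307 and 355 in TE13R, against 204, 733 and 778 in TE13. Both probes were therefore higher in TE13R at 0 h, by 1.66 and 1.49 times, and lower at the later times, with ratios of 0.342 and 0.411 for the brightest probe and 0.419 and 0.456 for the other. Over the 3 time points PTGS1 was not called between the lines (log2 difference -0.67, standard error 0.39, limma adjusted p = 0.44). Without the 0 h arrays, where the sign was the opposite, the difference was -1.37 (limma adjusted p = 0.0041). It was -0.27 without the 8 h arrays (limma adjusted p = 0.90) and -0.38 without the 24 h arrays (limma adjusted p = 0.74). The call thus rested on the times included. Whether the line difference depended on time leaves no residual degree of freedom and was not tested.

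The PTGS1 probes also disagreed on the change at 8 h. The brightest had a log2 change of -1.13 against 0 h (standard error 0.48, limma adjusted p = 0.078), which came from TE13R with -2.22 while TE13 alone had -0.04. The other had 0.89 (standard error 0.41, limma adjusted p = 0.097). Neither was called. Between 8 and 24 h the brightest probe had 1.58 (standard error 0.48, limma adjusted p = 0.069), with ratios of 3.39 in TE13R and 2.82 in TE13. In the window upstream of PTGS1 that starts first in RefSeq a match to the antioxidant response element core was found at position -157, a motif held by 10.9% of all windows.

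**Figure D2:**
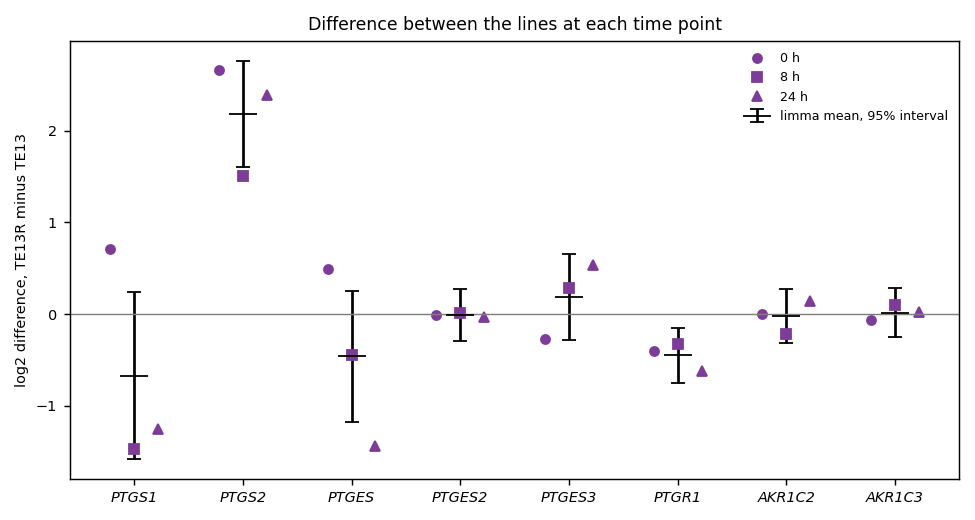
Log2 difference of TE13R minus TE13, log2(intensity + 16), for the 8 genes tested at 0 h (circles), 8 h (squares) and 24 h (triangles), with the limma mean and its 95% interval in black. The PTGS2 differences all lie above 0, those of PTGS1 and PTGES lie above 0 at 0 h and below it later, and those of PTGES2 stay close to 0.

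The terminal prostaglandin E synthases differed from one another. PTGES, the inducible synthase that works together with PTGS2, read 8421, 7227 and 10072 in TE13R at 0, 8 and 24 h, against 5985, 9848 and 27317 in TE13. The TE13 array at 24 h was the highest by far, and the ranges of the lines overlapped. The ratio of TE13R over TE13 was 1.41 at 0 h, 0.734 after 8 h and 0.369 after 24 h. The line difference over the 3 time points was -0.46 on the log2 scale (standard error 0.31, limma adjusted p = 0.51). It was -0.94 without the 0 h arrays (limma adjusted p = 0.034) and 0.02 without the 24 h arrays (limma adjusted p = 0.99), so that the sign rested on the times included.

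PTGES was called higher at 24 h than at 0 h, by 1.22 on the log2 scale (standard error 0.38, limma adjusted p = 0.025), a 2.33-fold change with a 95% interval of 1.27 to 4.28. TE13R alone had a change of 0.26 and TE13 alone 2.19, or ratios of 1.20 and 4.56. The call was lost with no filter on dim probes (limma adjusted p = 0.238), with no mean-variance trend (limma adjusted p = 0.0745) and with line left out of the model (limma adjusted p = 0.0717). At 8 h the change was 0.25 (standard error 0.38, limma adjusted p = 0.60), below 0 in TE13R and above it in TE13.

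PTGES2, a membrane-associated synthase, rose after irradiation in both lines. It read 4260, 10518 and 11925 in TE13R at 0, 8 and 24 h, against 4301, 10440.5 and 12164 in TE13. On this brightest probe the lines were within a few percent of each other at each time, with ratios of 0.990, 1.01 and 0.980. The line difference was -0.01 (standard error 0.12, limma adjusted p = 0.98), and its 95% interval ran from 0.816-fold to 1.21-fold. PTGES2 rose by 1.29 on the log2 scale at 8 h (standard error 0.15, limma adjusted p = 3.93e-04) and by 1.49 at 24 h (standard error 0.15, limma adjusted p = 5.52e-04), changes of 2.44-fold and 2.81-fold against 0 h. Its other probe read 3757, 9081 and 8641 in TE13R, against 4678, 8637 and 9044 in TE13, and gave 1.08 at 8 h and 1.07 at 24 h (limma adjusted p = 9.2e-04 and 0.0011). Both calls held under all 10 alternatives with a test. With the other probe the ratios of TE13R over TE13 were 0.803, 1.05 and 0.955 at 0, 8 and 24 h, further apart at 0 h.

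PTGES3, better known as the HSP90 co-chaperone p23 and also described as a cytosolic prostaglandin E synthase, read 818, 749 and 686 in TE13R at 0, 8 and 24 h, against 988, 611 and 469.7 in TE13. In both lines the 0 h array was the highest and the 24 h array the lowest, TE13 had the wider range, and the lines overlapped. None of its contrasts was called. The log2 change was -0.40 at 8 h (standard error 0.25, limma adjusted p = 0.21) and -0.65 at 24 h (standard error 0.25, limma adjusted p = 0.057), and the line difference was 0.18 (standard error 0.20, limma adjusted p = 0.73).

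HPGD, the dehydrogenase that starts prostaglandin breakdown, was read by 1 probe. It gave 245.4 on the TE13R array at 0 h and -3.01 and 11.9 on those at 8 and 24 h, against -2.52, -6.29 and 0.549 in TE13. Only the first of these lay above the detection limit. With the limit in place of the dim arrays, HPGD was at least 12.16-fold higher in TE13R than in TE13 at 0 h, and its 0 h level in TE13R was at least 12.17-fold above that at 24 h. This rests on 1 array and was not tested. HPGD has 2 upstream windows in the table, of which 1 held a GC box and an NF-kB match.

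PTGR1, which reduces oxidised prostaglandins and also inactivates leukotriene B, fell after irradiation in both lines. It read 13821, 5036 and 4206 in TE13R at 0, 8 and 24 h, against 18323, 6344 and 6461 in TE13. The 0 h array was the highest of each line. The log2 change was -1.49 at 8 h (standard error 0.16, limma adjusted p = 3.19e-04) and -1.61 at 24 h (standard error 0.16, limma adjusted p = 5.52e-04), 2.81-fold and 3.05-fold lower than at 0 h. Its other probe read 5022, 2453 and 1419 in TE13R, against 7896, 2422 and 3007 in TE13, and had changes of -1.36 and -1.60 (limma adjusted p = 0.0020 and 0.0011). Both calls held under all 10 alternatives with a test.

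PTGR1 was the one other member whose brightest probe kept 1 sign between the lines at every time with an interval clear of 0 before adjustment. The ratios of TE13R over TE13 were 0.754, 0.794 and 0.651 at 0, 8 and 24 h. The difference was -0.45 (standard error 0.13, unadjusted p = 0.0087 and adjusted p = 0.10 in limma), which is not called. With the other probe it was -0.57 (limma adjusted p = 0.19). The ratios of that probe were 0.636, 1.01 and 0.472, so the lines were level at 8 h.

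**Figure D3:**
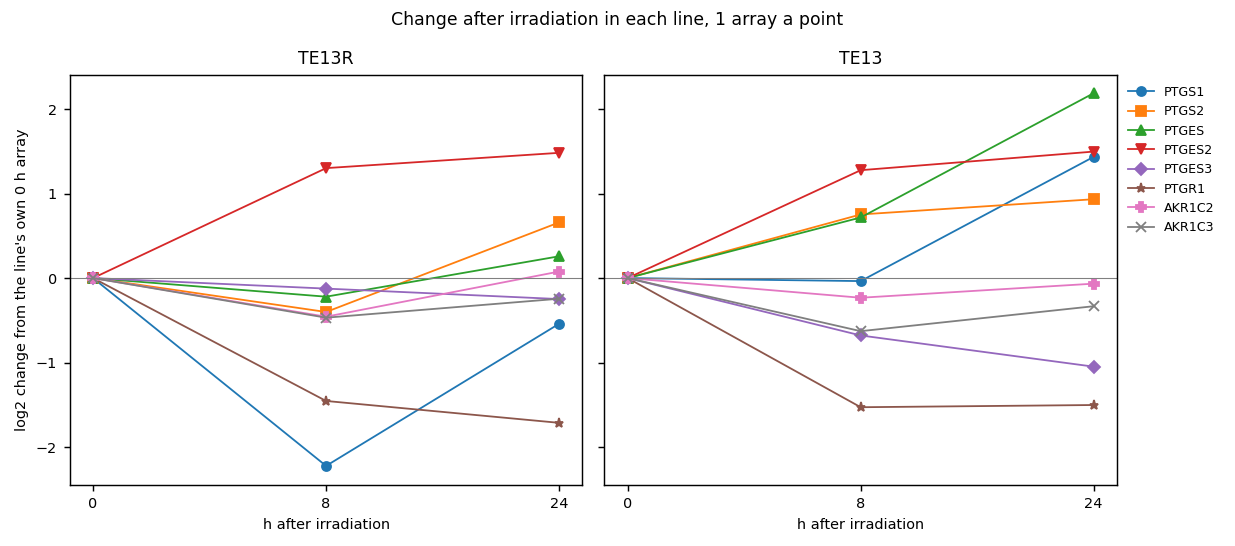
Log2 change of each of the 8 genes tested from the 0 h array of its own line in TE13R (left) and TE13 (right), at 0, 8 and 24 h, evenly spaced, 1 array a point. PTGES2 rises and PTGR1 falls in both lines, while PTGES reaches 2.19 at 24 h in TE13 and 0.26 in TE13R.

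The AKR1C genes are close paralogs that reduce steroids, prostaglandins and other carbonyl compounds, and they are known targets of NRF2 in human cells. AKR1C3 read 37103, 26809 and 31318 in TE13R at 0, 8 and 24 h, against 38854, 25136 and 30845 in TE13. In each line the 8 h array was the lowest. Between the lines AKR1C3 had a log2 difference of 0.02 (limma standard error 0.12, adjusted p = 0.97), with a 95% interval from 0.837 to 1.22 times. AKR1C3 fell by 0.55 on the log2 scale at 8 h (standard error 0.14, limma adjusted p = 0.013), 1.46-fold lower than at 0 h with a 95% interval of 1.16 to 1.84. TE13R alone had -0.47 and TE13 alone -0.63. This call was lost with no filter on dim probes (limma adjusted p = 0.056) and with no mean-variance trend (limma adjusted p = 0.075). At 24 h the change was -0.29 (standard error 0.14, limma adjusted p = 0.12), and the difference of 24 h minus 8 h was not called (0.26, standard error 0.14, limma adjusted p = 0.27).

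The brightest AKR1C2 probe read 51297, 37370.5 and 54120 in TE13R at 0, 8 and 24 h, against 51195, 43565 and 48904 in TE13. Its line difference was -0.02 (standard error 0.13, limma adjusted p = 0.96). Its change at 8 h was -0.34 (standard error 0.15, limma adjusted p = 0.092), and at 24 h it was 0.01 (limma adjusted p = 0.98). These values are near the top of the scale, since the highest intensity on any of the arrays was 61783 to 67593. The AKR1C3 probe was bright too, brighter than 99.7% of all probes. Whether signals are compressed at such levels was not tested for either gene.

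The other AKR1C2 probes were far from that picture. The second brightest read 849.9, 14.4 and 54.7 in TE13R, against 411, 36.2 and 21.7 in TE13. It was lower at 8 h and at 24 h than at 0 h (limma adjusted p = 2.81e-04 and 5.84e-04), where the brightest probe was not called. With the detection limit in place of the TE13R 8 h array, which was below it, it was at least 21.88-fold lower at 8 h, and it was 17.15-fold lower at 24 h. The third read 81.8, 117 and 97.7 in TE13R, against 210.3, 49.6 and 644 in TE13, and had no called change. The fourth exceeded the detection limit on the 0 h array of each line only, and the fifth on none. A value for AKR1C2 therefore depends on the probe, and all 5 probes carry the same transcript accession in the annotation.

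The AKR1C1 probe read -4.19, 1.52 and -4.77 in TE13R at 0, 8 and 24 h, against -8.38, -1.02 and 7.34 in TE13. It stayed below the detection limit throughout, so no fold is given. AKR1C4, the liver-type paralog, is outside the list and exceeded the limit on 1 array only, TE13R at 8 h with 30.4.

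**Figure D4:**
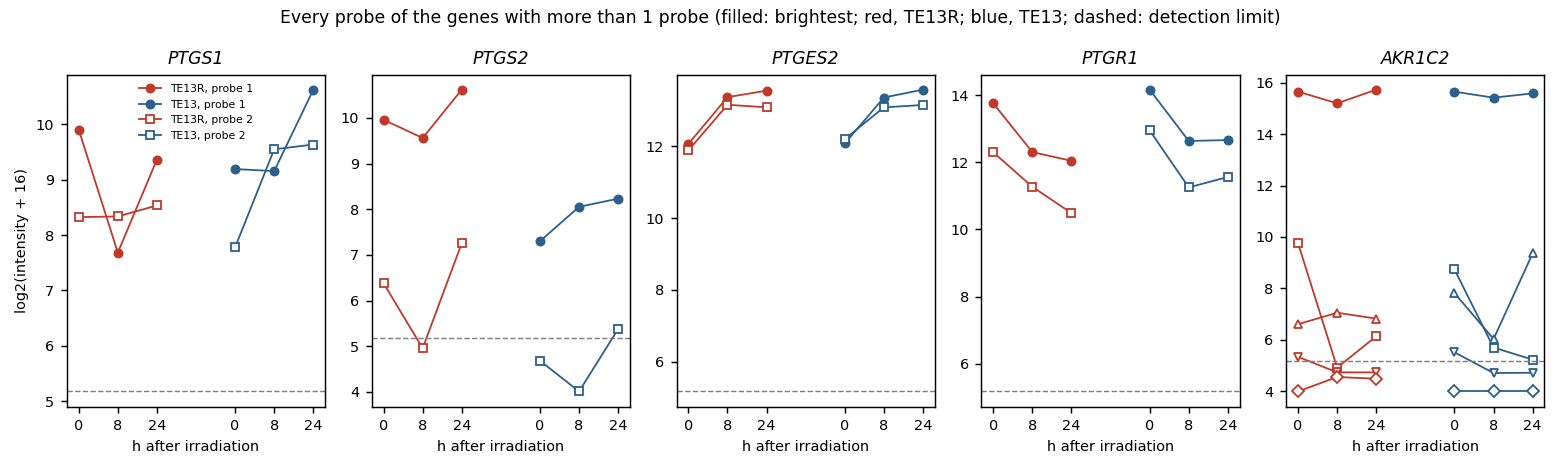
Log2(intensity + 16) of every probe of the 5 genes with more than 1 probe in TE13R (red, left) and TE13 (blue, right) at 0, 8 and 24 h, evenly spaced, with filled circles for the brightest probe, open squares, triangles and diamonds for the others and the detection limit dashed. In each line both probes of PTGES2 lie above their 0 h level at 8 and 24 h, and both probes of PTGR1 lie below it. Those of PTGS1 part at 8 h, the dim PTGS2 probe lies near the limit, and only 1 of the 5 AKR1C2 probes stays bright on every array.

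The upstream windows of the AKR1C genes are shown because AKR1C1 and AKR1C2 are nearly identical there while AKR1C3 is less alike. Each run holds the 250 bases before a RefSeq start on GRCh38.p14, and capitals mark bases that differ from AKR1C2 in a pairwise alignment. Bases beyond the ends of the alignment have no partner in AKR1C2 and are in small letters too. The windows are chr10:4963165-4963414 (plus strand) for AKR1C1, chr10:5003858-5004107 (minus strand) for AKR1C2 and chr10:5048531-5048780 (plus strand) for AKR1C3, the first of its 2 starts.
AKR1C1: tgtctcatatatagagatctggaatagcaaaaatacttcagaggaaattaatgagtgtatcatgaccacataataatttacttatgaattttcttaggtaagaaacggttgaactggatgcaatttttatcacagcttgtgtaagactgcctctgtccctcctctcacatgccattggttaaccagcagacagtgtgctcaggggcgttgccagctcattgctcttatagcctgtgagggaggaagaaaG
AKR1C2: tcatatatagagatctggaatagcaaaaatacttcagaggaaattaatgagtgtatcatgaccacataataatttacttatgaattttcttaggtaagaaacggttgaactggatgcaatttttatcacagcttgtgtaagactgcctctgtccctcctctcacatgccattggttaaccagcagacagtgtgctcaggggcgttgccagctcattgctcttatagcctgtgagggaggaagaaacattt
AKR1C3: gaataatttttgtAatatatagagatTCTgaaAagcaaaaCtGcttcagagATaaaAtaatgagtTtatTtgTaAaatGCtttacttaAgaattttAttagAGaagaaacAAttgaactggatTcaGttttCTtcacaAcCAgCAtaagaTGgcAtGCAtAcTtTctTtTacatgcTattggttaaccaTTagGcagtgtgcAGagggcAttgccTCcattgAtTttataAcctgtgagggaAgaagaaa
AKR1C1 and AKR1C2 shared 245 of 246 aligned bases (99.6%). AKR1C3 shared 183 of 237 aligned bases with AKR1C2 (77.2%). None of the 4 AKR1C windows held a match to the antioxidant response element core, the AP-1 site, the cAMP response element, the GC box or the NF-kB consensus, and the first AKR1C3 window held a TATA element on the other strand. The probe sequences were not used here, so whether each probe binds its paralogs was not tested.

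Across all 10 genes the table held 15 upstream windows. The antioxidant response element core was found in 4 of them, belonging to PTGS1, PTGES2 and PTGES3, beside 10.9% of all windows. GC boxes were found in 8 of them, belonging to PTGS1, PTGES, PTGES2, PTGES3 and HPGD, beside 42.6% of all windows. The NF-kB consensus was found in 2 of them, HPGD and PTGES3 (where it overlaps a GC box), beside 9.96%. The AP-1 site (6.57% of all windows) and the cAMP response element (1.65%) were found in none.

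Counted over the 8 genes tested, 1 was called higher at 8 h than at 0 h (PTGES2), 2 lower (PTGR1, AKR1C3) and 5 not called. Over all genes 27.5% were called higher and 28.8% lower in that contrast, so that calls among these genes were not more frequent than among genes at large. At 24 h against 0 h, 2 were higher (PTGES, PTGES2), 1 was lower (PTGR1) and 5 were not called, beside 27.8% higher and 27.8% lower over all genes. Between 8 and 24 h none of the 8 was called in limma, beside 7.67% higher and 5.23% lower over all genes, and PTGS1 and PTGES had an unadjusted p under 0.05. The contrasts of 8 h and of 24 h with 0 h share the 0 h arrays. Reference genes moved too: HPRT1, GUSB and B2M were lower at 8 h and HPRT1 and B2M at 24 h. None of the 6 was called between the lines, beside 2.61% higher and 2.45% lower over all genes. The part of the reference genes' shifts over time in the members' changes was not tested.

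Upstream of the cyclooxygenases, 11 genes of arachidonate release were tested. Of these 1 was higher and 2 lower in TE13R, beside 2.61% and 2.45% over all genes. The median log2 difference was 0.08, beside 0.01 over all genes. MGLL, which frees arachidonate from monoacylglycerol, read 15.2, 14.2 and 16.2 in TE13R at 0, 8 and 24 h, against 156, 305 and 336 in TE13. All TE13R arrays were below the detection limit, so MGLL was at least 12.49-fold lower in TE13R (limma adjusted p = 0.0026). DAGLA, which makes the monoacylglycerol, was at least 2.02-fold lower in TE13R. PLA2G4F, a cytosolic phospholipase, was called higher there (limma adjusted p = 0.046). It read 129, 9.40 and 234 in TE13R, above the limit on 2 of the 3 arrays, and was below it on every TE13 array. As neither line was above the limit at 8 h, no fold is given for PLA2G4F. DAGLA and PLA2G4F passed the filter on low values only with the arrays of the line where they are high. Their calls are not independent of the filter, and the count above includes them. After irradiation 2 of the 11 were higher and 1 lower at 8 h (beside 27.5% and 28.8% over all genes), and 5 were higher and none lower at 24 h (beside 27.8% each), among them FAAH (1.57 on the log2 scale), PLAAT3 (1.34) and PLA2G10 (1.60).

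Beside the listed synthases, PTGDS, HPGDS, PTGIS and TBXAS1, which make prostaglandin D, prostacyclin and thromboxane, were below the detection limit on all 6 arrays. Of the 6 other synthases and reductases tested none was called between the lines, beside 2.61% higher and 2.45% lower over all genes. The carbonyl reductases CBR1 (1.37 at 8 h and 0.85 at 24 h on the log2 scale) and CBR3 (0.61 and 0.67) were higher at both times. PTGR3, a relative of PTGR1, was lower at both times (-1.62 and -1.59), and PTGR2, another, was lower at 24 h (-1.58).

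Of 11 prostanoid receptor genes on the array 7 were below the detection limit on all 6 arrays. Of the 5 tested none was called between the lines, beside 2.61% higher and 2.45% lower over all genes. PTGER4 had a log2 difference of -0.75 (limma adjusted p = 0.25) and PTGER3 of 0.52 (limma adjusted p = 0.42). PTGER3, a receptor for prostaglandin E, was higher at 24 h (1.10, limma adjusted p = 0.032). PTGFRN, a membrane protein that inhibits the prostaglandin F receptor, was lower at 8 h (-1.26) and 24 h (-1.56). Of 5 transporter genes tested, 1 was higher in TE13R and none was lower, beside 2.61% and 2.45% over all genes. This was SLCO3A1, with 1630, 1822 and 1597 in TE13R at 0, 8 and 24 h, against 559, 970.1 and 935 in TE13 (log2 difference 1.06, standard error 0.19, limma adjusted p = 0.024). The exporter ABCC4 was lower after irradiation (-2.11 at 8 h and -2.48 at 24 h) and SLCO4A1 was higher (1.88 and 1.32).

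In the lipoxygenase branch, which also consumes arachidonate, none of 13 genes tested was called between the lines, beside 2.61% higher and 2.45% lower over all genes. ALOXE3 (2.26 at 8 h and 2.59 at 24 h) and ALOX12B (1.31 and 1.88), lipoxygenases of the squamous barrier, were higher after irradiation, and LTA4H, which makes leukotriene B, was lower at 8 h (-1.55). Steroids are the other substrates of AKR1C3. Among 14 genes for steroid-reducing or steroid-oxidising enzymes, HSD17B6 was lower in TE13R (-1.51, limma adjusted p = 0.032). Of these genes 1 was thus called lower and none higher, beside 2.45% and 2.61% over all genes. At 8 h 5 of them were higher and 4 lower, near the 27.5% and 28.8% over all genes, among them HSD11B2 (2.54), which inactivates cortisol, and HSD17B4 (-1.89).

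PTGS2 is a known target of NF-kB and AP-1, and 21 genes of those pathways were tested beside it. Of these 2 were higher in TE13R and none was lower, beside 2.61% and 2.45% over all genes. The median log2 difference was 0.08, beside 0.01 over all genes. CXCL8, a neutrophil chemokine, read 1018, 1221 and 1027 in TE13R at 0, 8 and 24 h, against 149, 574 and 211 in TE13 (log2 difference 1.97, standard error 0.30, limma adjusted p = 0.012). IL1B, an inflammatory cytokine, had 0.71 (standard error 0.15, limma adjusted p = 0.036). At 24 h 10 of the 21 were higher than at 0 h and 1 was lower, beside 27.8% each over all genes, with FOSB, FOS, JUN and RELB as the largest (2.40 to 3.00), while PTGS2 was not called.

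NRF2 drives antioxidant genes and also regulates AKR1C genes. Among its markers GCLM (1.21, limma adjusted p = 0.0041) and PGD (0.72, limma adjusted p = 0.037) were higher in TE13R. Of the 14 NRF2 markers 2 were thus called higher and none lower between the lines, beside 2.61% and 2.45% over all genes. At 8 h 2 were higher and 6 lower than at 0 h, beside 27.5% and 28.8% over all genes, with log2 changes of -2.27 for TXNRD1, -2.03 for NFE2L2 and -2.02 for GCLC among the lower and 2.05 for HMOX1 among the higher. Against 2.61% called higher and 2.45% lower over all genes, none of 13 HSP90 co-chaperones and partners beside PTGES3 was called between the lines. At 24 h 4 of them were higher and 7 lower, beside 27.8% each over all genes. HSPA8 (-1.97), CHORDC1 (-1.81) and HSP90AA1 (-1.75) were among the lower, while the -0.65 of PTGES3 was not called. HSPA1A went the other way, with 6691 at 24 h against 2614 at 0 h in TE13R and 6279 against 2926 in TE13.

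For the 6 members whose lowest and highest arrays were at least 2-fold apart, the genes whose log2 values followed them most closely over the 6 arrays are given as a description, over 12782 other genes and with arrays that share lines and times. For PTGS2 they were CTSH (r 0.995), PLOD3 (r 0.991) and HOMER2 (r 0.987), with 32 genes above 0.95. PTGS1 had MGAT3 (r 0.988) and 8 genes above 0.95, PTGES had DCAF11 (r 0.983) and 21 genes, and PTGES3 had PM20D2 (r 0.995) and 70 genes. PTGES2 and PTGR1 had many such genes, 727 and 488, led by DDX41 (r 0.999) and ALG2 (r 0.995).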

How the data were processed

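Total RNA of TE13R and TE13 at 0, 8 and 24 h was profiled on 6 arrays. The deposited values are linear intensity per probe, collected by the authors with Illumina BeadStudio, background-subtracted (29.7% lie below 0) and already on 1 scale. Software version, normalization and pooling were not given in the sources used here, although the methods mention triplicates. Here 1 array per line and time point was analysed. Symbols came from the platform annotation (27578 probes with 1 symbol, 13 with several, 21212 with none), and none was changed by RefSeq.

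Values were set to at least 0, 16 was added and log2 taken. Filtering left 16954 probes that ranked in the upper 50% of at least 3 arrays, of which the brightest per gene was used (12783 genes), and limma 3.58.1 in R 4.3.3 was fitted with time point and line (2 residual degrees of freedom, 5.75 from the prior), with a mean-variance trend and Benjamini-Hochberg adjustment. Time contrasts came from the same fit. The procedure was tested on simulated data. The members and gene lists were chosen with earlier results of these data known. Named are all members with every probe, per list up to 4 called genes (2 where none was called) of largest difference, and the 3 genes most like a member; not all that the rule yields are printed. For a gene below the detection limit on every array of 1 side and above it on every array of the other, the fold is a bound against that limit. Alternatives were offsets of 1 and 64, quantile normalization, median centring, no or a stricter filter, no trend, mean of probes, no block, the methods' t-test, each time point or line left out, limits at 2 and 5 times the root mean square and, added after seeing the data, the second brightest probe. Array number limits the precision. Upstream windows came from RefSeq (GRCh38.p14).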

Additional observations from a re-analysis of the deposited data

Results flagged for a closer look

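HPGD in TE13R at 0 h stands out as a signal in data outside the tests, since the gene did not pass the filter on low values. Its probe read 245.4 there, while the 2 later TE13R arrays and all 3 TE13 arrays lay between -6.29 and 11.9, below the detection limit of about 20.2. It rests on 1 array.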

How the results depend on the processing

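Counts of genes called between the lines (646) moved to 0 with no filter on dim probes, 174 with no mean-variance trend, 17 with no time point in the model and 1 by the methods' t-test (517 before adjustment), and ran from 142 (without 8 h) to 850 (without 0 h) when a time point was left out. The 24 h minus 0 h count (7111) moved to 4445 with no filter. The 24 h minus 8 h count (1648) moved to 0 with no filter, 475 with no trend and 0 with no line in the model. The causes were not tested. PTGS2 stayed called between the lines in 11 of 14 alternatives, and its t-test p was 0.00654 unadjusted and 0.703 adjusted. Small or uncalled differences changed sign. The AKR1C2 change at 24 h was -0.0066 under quantile normalization, -0.0133 under median centring, -0.84 as the mean of probes, -3.56 with the second brightest probe, 0.0773 in TE13R alone and -0.0660 in TE13 alone. The PTGS2 change at 8 h was -0.44 as the mean of probes, -1.05 with the second probe (both 8 h arrays below the detection limit), -0.40 in TE13R alone and 0.75 in TE13 alone. With the second probe the AKR1C2 line difference was 0.38, PTGS1 at 8 h 0.89 and PTGES2 between 8 and 24 h -0.0027. When time points were left out, line differences ran from -0.109 to 0.0745 for AKR1C2, -0.0223 to 0.0574 for AKR1C3 and -0.942 to 0.0229 for PTGES. By line alone, PTGR1 between 8 and 24 h ran from -0.259 to 0.0262, PTGES at 8 h from -0.22 to 0.72 and PTGS1 at 24 h from -0.54 to 1.43. At limits of 2 and 5 times the root mean square 8 genes also lay above the limit on all 6 arrays. The labels give no replicate numbers, and the lines were matched by time point in the model. Array signals near background limit HPGD, AKR1C1 and the dim probes of PTGS2 and AKR1C2.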
